A study of Mus musculus with 8 samples.

Results

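The genes described here are Dot1l, the H3K79 methyltransferase, and 9 genes of transcription elongation, whose human counterparts are fused to MLL in leukaemia or, for Ell2, are a paralogue of such a partner: Mllt1 (ENL), Mllt3 (AF9), Mllt6 (AF17), Mllt10 (AF10), Aff1 (AF4), Aff3 (LAF4), Aff4 (AF5Q31), Ell and Ell2. They were chosen by symbol, and all 10 were found by Ensembl identifier among the 53801 genes counted. RNA was measured in sorted small intestinal Paneth cells of 4 β-catGOF; Mll1+/- mice (controls 1 to 4) and 4 β-catGOF; Mll1-/- mice (knockouts 1 to 4), with 300 cells per sample, at 10 d after mutagenesis was induced with 3 tamoxifen injections in mice of 4 to 6 wk. In recombined cells both groups therefore carry a stabilised β-catenin, made by deleting exon 3 of its gene. The deletion uses a tamoxifen-inducible Cre driven by the Lgr5 promoter, and the same cells carry at least 1 deleted Mll1 allele. No mouse with 2 intact alleles was in either group. The sort took viable EpCAM+ Cd24+ cells, and the paragraph of the study's methods on the sort names littermates without β-catGOF, whereas the sample sheet and results name it.

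Mll1, encoded by Kmt2a, is a histone H3K4 methyltransferase. In leukaemia its amino terminus is joined to one of a set of partner proteins, and the commonest partners belong to a few connected machines. ENL and AF9 carry a YEATS domain that reads acylated histones, and they bind both Dot1l and the AFF scaffold proteins. AF10 and AF17 bind Dot1l and promote H3K79 methylation over transcribed genes. The AFF proteins hold the super elongation complex together, which brings the kinase P-TEFb and an ELL factor to paused RNA polymerase II. ELL2 is known from plasma cells, another professional secretory cell, where it favours processing of the secreted form of immunoglobulin heavy chain RNA. The comparison asks whether RNA of this machinery differed between Paneth cells sorted from Mll1+/- mice and from Mll1-/- mice. The study describes recombination with this Cre as a mosaic, with non-recombined crypts beside the mutant ones. It also reports, from staining of mutant crypts, that crypt cells including Paneth cells lacked Mll1 when sorted. The sort markers do not select recombined cells, and their share in each sample was not tested.

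All 9 genes that could be tested were detected in every library, and none passed the test of a difference between the genotypes. Calls were made with edgeR's quasi-likelihood test, from a limit of 0.05 on the adjusted p together with 0.5 on the size of the log2 fold change. By that rule 0 of the 9 genes was called, as against 0.186% of the 13439 genes tested, 0.156% higher and 0.0298% lower in knockouts. At a false discovery rate of 10% it was 0 of 9 beside 0.283%. At an unadjusted p under 0.05 the count was again 0 of 9, beside 6.88% of all tested genes. DESeq2's Wald test and limma-voom likewise called 0 of the 9, where they called 138 and 101 of all 13439 genes. Fold changes lay above 0 for 7 of the 9 genes and below 0 for 2, with a median of 0.07 on the log2 scale, while 50.9% of all tested genes lay above 0 with a median of 0.01. The 95% interval spanned 0 for each of the 9, and for 7 of them it lay within a 2-fold change in either direction. Aff3 was too rare to test.

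These are sparse genes in libraries filled by a few others. Totals on genes were between 13037832 and 14380240 counts, of which the 10 genes together received between 1530 and 2310. Levels are given as normalized CPM, which are CPM after edgeR's TMM scaling of the library size, and levels between genes as normalized CPM per kilobase of exon. TMM factors were between 0.8213 and 1.149 in the controls and between 1.217 and 1.337 in knockouts 1, 2 and 4, with 0.6316 in knockout 3. Knockout 3 stood apart in other measures too: 19662 genes had a count there, against 22623 to 26074 in the other libraries, and mitochondrial genes took 2.043% of its counts, against 3.26% to 8.784%. The 11 Paneth markers summed to between 262700 and 782300 normalized CPM over the 8 libraries, highest in knockout 3, and the 4 stem cell markers to between 190.5 and 1239, lowest in knockout 3. Most of that range was Olfm4, with 103 to 1123, while Lgr5 ran from 37.4 to 55.7 and Smoc2 from 48 to 61.7. The 6 immune markers summed to at most 28.9 and the 5 stromal markers to at most 6.83. The 7 goblet markers summed to 1790 to 4301 in controls and to 1669 to 4058 in knockouts. For 5 enteroendocrine markers the sums were 109.2 to 321.4 and 18.32 to 138.1, and for 4 tuft markers 78.06 to 245 and 36.02 to 163.5. For 7 enterocyte markers they were 109 to 293.7 and 32.05 to 211.7, and for 3 proliferation markers 47.27 to 118.4 and 46.89 to 172. The genotypes overlapped in each, and no marker of these lists was called. What part these differences between libraries have in the values of the 10 genes was not tested. In RNA from sorted bulk samples, fewer cells with a transcript and less of it per cell cannot be told apart. The targeted gene, Kmt2a, had 45.2, 37.3, 24.1 and 22.5 normalized CPM in controls 1 to 4 and 31.2, 25.8, 38.7 and 28.5 in knockouts 1 to 4. Its groups overlapped, and because a count sums over all exons of the gene it does not show a deleted exon.

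The start regions of 3 genes are printed here, Dot1l as the enzyme, Aff4 as the gene whose genotypes did not overlap, and Aff3 as the gene that was nearly silent. Each is the RefSeq window of 300 bases on GRCm38.p6, 250 before the start site and 50 from it, with CG dinucleotides in capitals. The CG dinucleotide is shown because Mll1 has a CXXC domain that binds it when unmethylated. The window of Dot1l is chr10:80754953-80755252 on the plus strand, that of Aff4 is chr11:53350517-53350816 on the plus strand, and that of Aff3 is chr1:38627195-38627494 on the minus strand. In GENCODE M21 the window of Dot1l straddles the start of the gene and that of Aff4 lies wholly in front of it. The start site used for Aff3 lies 37711 bases inside the gene, and 50 bases of its window are exonic.
Dot1l: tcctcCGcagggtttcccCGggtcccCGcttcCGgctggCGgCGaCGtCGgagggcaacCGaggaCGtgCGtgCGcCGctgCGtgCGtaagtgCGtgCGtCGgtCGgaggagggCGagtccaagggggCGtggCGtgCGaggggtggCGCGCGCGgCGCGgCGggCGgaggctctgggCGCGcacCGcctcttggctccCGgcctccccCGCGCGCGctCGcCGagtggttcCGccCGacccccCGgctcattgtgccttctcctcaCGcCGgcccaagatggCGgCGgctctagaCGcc
Aff4: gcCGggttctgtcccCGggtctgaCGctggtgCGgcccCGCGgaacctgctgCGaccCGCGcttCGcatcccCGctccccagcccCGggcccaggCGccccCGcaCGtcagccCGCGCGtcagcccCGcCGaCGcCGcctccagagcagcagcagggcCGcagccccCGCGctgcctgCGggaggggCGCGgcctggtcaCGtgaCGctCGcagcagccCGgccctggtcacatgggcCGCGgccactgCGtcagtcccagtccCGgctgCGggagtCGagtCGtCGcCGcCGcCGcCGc
Aff3: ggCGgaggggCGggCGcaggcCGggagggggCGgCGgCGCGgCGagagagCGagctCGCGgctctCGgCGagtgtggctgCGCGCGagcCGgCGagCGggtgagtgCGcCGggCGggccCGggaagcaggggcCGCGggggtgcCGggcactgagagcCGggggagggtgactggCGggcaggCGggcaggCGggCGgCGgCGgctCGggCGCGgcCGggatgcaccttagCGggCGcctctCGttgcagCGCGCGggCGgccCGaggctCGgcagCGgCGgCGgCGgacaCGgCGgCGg

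The Aff3 window held 54 CG dinucleotides, the Dot1l window 49 and the Aff4 window 44, where the median over 32851 windows was 7. All 10 genes had at least 1 window, 14 in all, with a median of 34.5 CG dinucleotides and 11 of the 14 above the median of all windows. The window of Ell2, the gene with the highest level, held 23. The 3 windows at or below the median of all windows were start sites of Mllt10, with 7 and 6, and of Mllt3, with 4, and both genes had another start site, with 43 and 29. On either strand, the GC box letters GGGCGG, which themselves hold a CG, were in 10 of the 14 windows and 35.7% of all windows. The TATA letters TATAAA were in 0 of 14 and 13.6% of all, the Ets letters CCGGAAG in 2 of 14 and 8.86%, the Tcf/Lef letters CTTTGA in 1 of 14 and 16%, and the E-box letters CANNTG in 7 of 14 and 72.3%. A match of letters is a description of the sequence only.

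Dot1l is the main methyltransferase of H3K79, a mark of transcribed gene bodies. Dot1l (ENSMUSG00000061589, chromosome 10 from 80755206 to 80795461) had 11.6, 9.55, 5.76 and 7.92 normalized CPM in controls 1 to 4. It had 9.89, 9.39, 14.1 and 7.48 in knockouts 1 to 4. The groups overlapped, and the highest value was that of knockout 3. Its log2 fold change was 0.22 (SE 0.28, 95% interval −0.39 to 0.83, edgeR adjusted p = 0.96). Without knockout 3 it was 0.03, and without control 1 it was 0.39.

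The Dot1l cofactors AF10 and AF17 are paralogues with a PHD finger module at one end and a Dot1l-binding leucine zipper region at the other. Mllt10, encoding AF10 (ENSMUSG00000026743, chromosome 2 from 18055237 to 18212388), had 16.2, 16.8, 13.1 and 19.2 normalized CPM in controls 1 to 4 and 16, 13.3, 20.2 and 16 in knockouts 1 to 4. The genotypes ran over the same range, and the means were 16.3 ± 2.48 in controls and 16.4 ± 2.82 in knockouts (SD, n = 4 each). The interval of its log2 fold change, −0.43 to 0.43, was the narrowest of the 9 after that of Aff4. Its exons share 12.7% of their bases with those of Dnajc1 on the other strand, and the strand setting of the counting is not given in the sources used here, so reads of the genes cannot be told apart there. Mllt6, encoding AF17 (ENSMUSG00000038437, chromosome 11 from 97663414 to 97685463), had 7.67, 6.45, 3.78 and 5.46 normalized CPM in controls 1 to 4 and 5.12, 5.01, 3.42 and 4.62 in knockouts 1 to 4. In this gene 3 controls lay above every knockout and control 3 lay among the knockouts. The log2 fold change of Mllt6 was −0.36 (SE 0.29, 95% interval −1.0 to 0.29, edgeR adjusted p = 0.915), the lowest of the 9. It was below 0 under all 18 alternative settings tried and called in none, but its size moved, from −0.19 without control 1 to −0.52 without control 3, and to −0.16 with limma-voom.

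The YEATS domain readers ENL and AF9 had close means in the genotypes, with a wide spread between libraries. Mllt3, encoding AF9 (ENSMUSG00000028496, chromosome 4 from 87769925 to 88033364), had 22.9, 12.7, 21 and 15.3 normalized CPM in controls 1 to 4 and 14.5, 23.4, 13.4 and 22.5 in knockouts 1 to 4. In each genotype 2 libraries were above 20 and 2 were below 16, so the spread lay within the genotypes. Its log2 fold change was 0.04 (95% interval −0.52 to 0.60). Mllt1, encoding ENL (ENSMUSG00000024212, chromosome 17 from 56892612 to 56935388), had 5.28, 3.66, 3.42 and 2.93 normalized CPM in controls 1 to 4. In knockouts 1 to 4 it had 4.41, 4.61, 2.36 and 4.56. Knockout 3 was far below its group, with 20 counts against 74 to 80 in the other knockouts. The log2 fold change was 0.07 (95% interval −0.66 to 0.79) with all libraries and 0.23 without knockout 3.

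**Figure D1:**
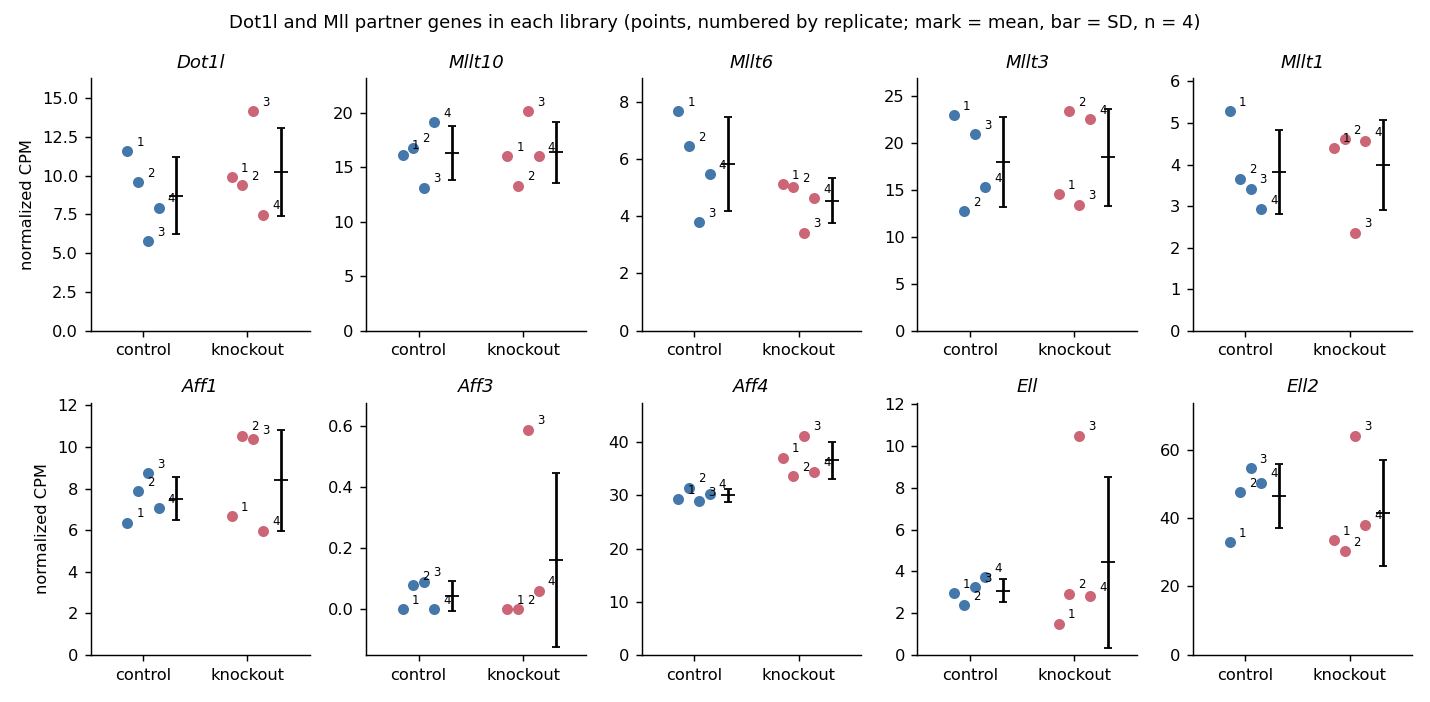
Normalized CPM (y axis, linear, a different scale in each panel) of the 10 genes in the 4 control (blue) and 4 knockout (red) libraries, each point 1 library numbered by replicate, with the mean and SD of the group beside the points. Aff4 is the panel in which the genotypes do not overlap, from 28.9 to 31.4 in controls and from 33.6 to 41.2 in knockouts, and knockout 3 is the highest point over both genotypes in 6 panels.

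Aff4 was the gene of the 10 whose genotypes did not overlap, as did 4.52% of all tested genes. It encodes the scaffold of the most widely expressed form of the super elongation complex. Aff4 (ENSMUSG00000049470, chromosome 11 from 53350833 to 53421830) had 29.3, 31.4, 28.9 and 30.3 normalized CPM in controls 1 to 4. It had 37.1, 33.6, 41.2 and 34.4 in knockouts 1 to 4. The log2 fold change was 0.29 (SE 0.15, 95% interval −0.04 to 0.61), and it did not pass the test, with an unadjusted p = 0.0796 from edgeR's fit over 8 libraries and an adjusted p = 0.788. Leaving out 1 library at a time gave 0.22 to 0.32. The separation depended on the scaling: it was present with DESeq2's size factors, with upper-quartile scaling and with library sizes without the 50 most abundant genes, and absent on plain CPM, where controls ran from 23.7 to 33.6 and knockouts from 26 to 47.3. These other scalings were set beside each other after the values had been seen.

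Of its paralogues, Aff1 was lower and Aff3 barely present. Aff1 (ENSMUSG00000029313, chromosome 5 from 103692374 to 103855322), encoding AF4, the commonest partner of MLL in infant leukaemia, had 6.35, 7.88, 8.73 and 7.05 normalized CPM in controls 1 to 4 and 6.67, 10.5, 10.4 and 5.96 in knockouts 1 to 4. Knockouts 2 and 3 lay above all controls and knockout 4 lay below them. For Aff1 the fitted log2 fold change was 0.16 (95% interval −0.42 to 0.73), and it ran from 0.02 without knockout 2 to 0.29 without knockout 4 and was 0.01 with the level of Y-linked genes as a covariate. Aff3 (ENSMUSG00000037138, chromosome 1 from 38177326 to 38664955), known for expression in lymphoid cells and brain, had 0, 1, 1 and 0 counts in controls 1 to 4 and 0, 0, 5 and 1 in knockouts 1 to 4. The count was at or below 1 in 7 of the 8 libraries, which were under the floor of 3 counts, which corresponds to between 0.173 and 0.353 normalized CPM by library, so no fold change is given and a difference was not detectable at this depth. Reads that are PCR copies were counted separately, so this floor covers counting error only. Of the immune markers, Cd3e and Cd79a had at most 1 count in a library and Itgam at most 14, while Ptprc had 11 to 201 counts and Cd74 had 19 to 257.

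**Figure D2:**
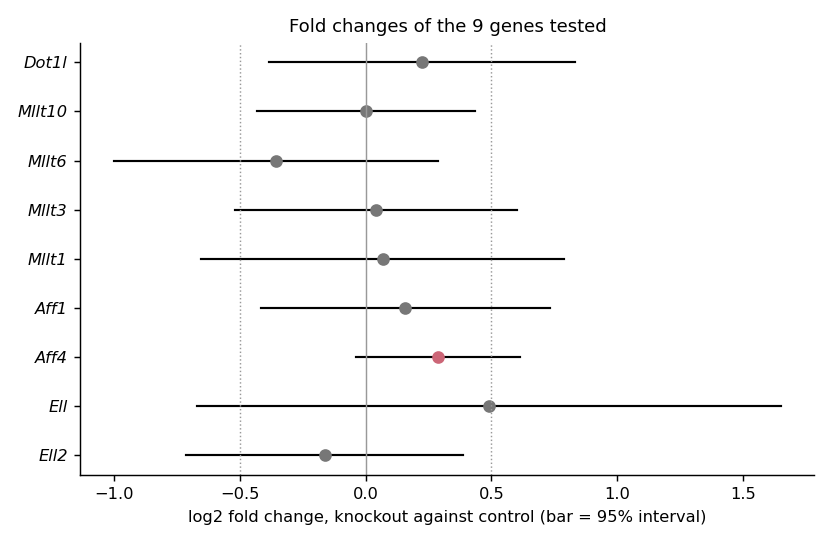
Log2 fold change of knockout against control (points, x axis) with the 95% interval (bars) for the 9 genes that passed the filter on low counts; dotted lines mark 0.5 in either direction and the red point marks Aff4, the gene whose genotypes do not overlap. Every bar crosses 0, and the bars are narrowest for Aff4 and widest for Ell.

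The ELL factors raise the elongation rate of RNA polymerase II and were the genes in which 1 library weighed most. Ell (ENSMUSG00000070002, chromosome 8 from 70539457 to 70592858) had 2.96, 2.39, 3.24 and 3.72 normalized CPM in controls 1 to 4 and 1.49, 2.94, 10.5 and 2.8 in knockouts 1 to 4. Knockout 3, with 89 counts where the other knockouts had 25 to 51, stood above all other libraries. For Ell the fitted log2 fold change was 0.49 (SE 0.53, 95% interval −0.67 to 1.65, edgeR adjusted p = 0.949). Without knockout 3 it was −0.35 (edgeR adjusted p = 0.773), so its direction rested on that library. The tagwise coefficient of variation of Ell, 0.514, was the highest of the 9 genes, and that of Aff4, 0.183, the lowest, where the common value over all genes was 0.376.

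Ell2 (ENSMUSG00000001542, chromosome 13 from 75706757 to 75772364) had the highest level of the 10 genes. It had 33, 47.5, 54.6 and 50.4 normalized CPM in controls 1 to 4 and 33.5, 30.2, 64.1 and 38.1 in knockouts 1 to 4. Of the knockouts, 3 lay near control 1 at the low end and knockout 3 was the highest of all 8 libraries. The log2 fold change of Ell2 was −0.16 (SE 0.25, 95% interval −0.71 to 0.39, edgeR adjusted p = 0.97). Without knockout 3 it was −0.45 (SE 0.19, unadjusted p = 0.0318 and adjusted p = 0.384 from edgeR's fit), and with limma-voom's quality weights −0.47 (unadjusted p = 0.0219, adjusted p = 0.305). Both were past an unadjusted 0.05 and neither was called. Without knockout 2 it was −0.04. The third paralogue, Ell3, had at most 1 count in a library.

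Ell2 differed from the other genes in how its counts moved with the scaling of the library. Its raw counts were between 525 and 636 in all 8 libraries, a ratio of 1.21 between the highest and the lowest, where the other 8 genes tested had ratios from 1.84 for Mllt10 to 4.21 for Mllt6. Across the 8 libraries, the Pearson correlation of log2 CPM before TMM scaling with the log2 TMM factor was −0.06 for Ell2. It was 0.98 for Mllt1, 0.89 for Aff4, 0.88 for Mllt3, 0.87 for Mllt6, 0.82 for Mllt10, 0.64 for Aff1, 0.63 for Dot1l and −0.46 for Ell. In words, 7 of the 9 genes took a larger share of the reads where the TMM factor was large, and Ell and Ell2 did not. The factor is itself set from the bulk of genes in a library, so such a relation follows in part from the scaling. The share of all tested genes with this relation was not counted. Without knockout 3, which has the lowest factor, the correlation was 0.22 for Ell and −0.40 for Ell2 and between 0.67 and 0.97 for the other 7. The sign for Ell therefore rested on that library, while its value stayed below those of the other 7. After TMM scaling the correlation of Ell2 with the factor was −0.97, so its normalized CPM was low where the factor was large. That of Ell was −0.79 and that of Mllt1 0.91, and the remaining genes lay between −0.53 for Mllt10 and 0.54 for Mllt3. These correlations describe 8 libraries whose values share the scaling, and they carry no test.

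**Figure D3:**
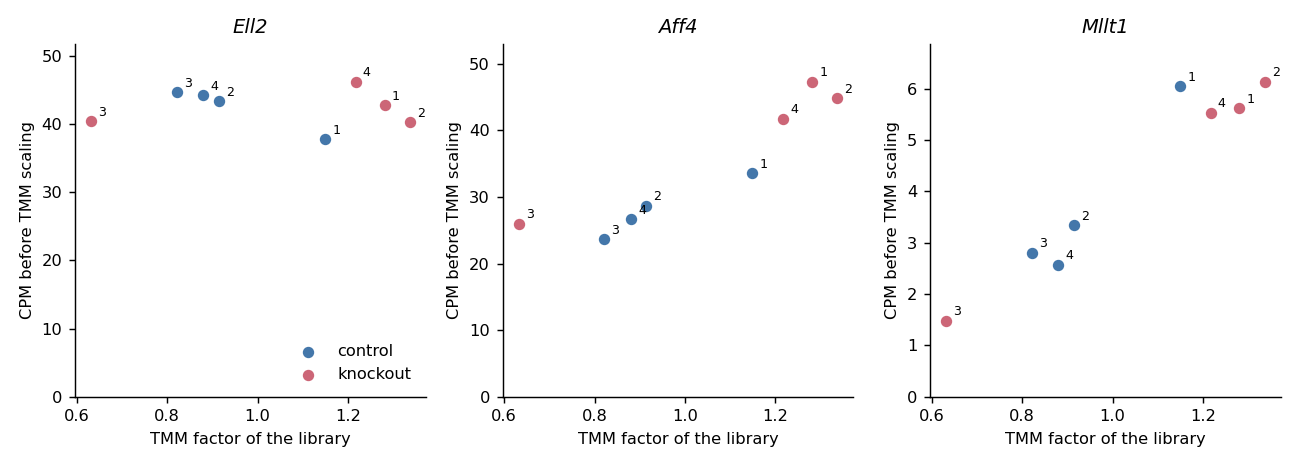
CPM before TMM scaling (y axis, linear, from 0) of Ell2, Aff4 and Mllt1 against the TMM factor of the library (x axis), each point 1 of 4 control (blue) or 4 knockout (red) libraries numbered by replicate. Ell2 lies between 37.8 and 46.2 over the whole range of factors, while Mllt1 runs from 1.49 to 6.14 and Aff4 from 23.7 to 47.3 with the factor.

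The genes whose log2 normalized CPM was most like that of Ell2 over the 8 libraries were Defa24, a Paneth cell defensin (r = 0.995), the chemokine Ccl6 (r = 0.995), Defa-ps7 (r = 0.992), the proline synthesis enzyme Aldh18a1 (r = 0.984) and Mmp7, the protease that activates Paneth cell defensins (r = 0.984). Over 11 Paneth markers the median r with Ell2 was 0.924, and 0.886 without knockout 3. On plain CPM, without the shared TMM factor, the median was 0.383, with single markers from −0.216 to 0.667 and Defa24 at 0.618, so the likeness was weaker without the common scaling. Mllt1 ran the opposite way, with a median r of −0.894 over the same markers, −0.841 without knockout 3 and −0.655 on plain CPM, where single markers ran from −0.95 to 0.151. For the other 7 genes tested the median r lay between −0.629 and 0.673. On plain CPM it lay between −0.682 for Mllt6 and 0.214 for Ell. The plain medians of Mllt10, Mllt3, Aff4, Aff1 and Dot1l, from −0.61 to −0.519, were near that of Mllt1, so on that scale Mllt1 did not stand apart. Ell had the largest fold change in size with all libraries, while without knockout 3 that of Ell2 was larger, −0.45 against −0.35. For Ell the most alike were Slc19a1, Mink1, Ddrgk1, Chst4 and Vps39, with r from 0.966 to 0.981, and from 0.851 to 0.908 without knockout 3.

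Per kilobase of exon, the order of mean levels over the 8 libraries was Ell2 (4.47 normalized CPM per kilobase), Mllt10 (2.77), Aff4 (2.48), Mllt3 (1.52), Ell (1.21), Dot1l (1.09), Mllt1 (1.08), Aff1 (0.84), Mllt6 (0.697) and Aff3 (0.0154). The range of Aff4 over the libraries lay wholly above that of Mllt3, and that of Mllt6 wholly above that of Aff3. The other neighbours overlapped, although Ell2 was above Mllt10 in 8 of 8 libraries. Ell and Mllt1 changed places without knockout 3 and on plain CPM. Among all tested genes Ell2 was at percentile 77.7 of level per kilobase, Mllt10 at 67.3, Aff4 at 64.5, Dot1l at 40.1 and Mllt6 at 27.6.

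Within the AFF, ELL and AF10/AF17 families 1 paralogue gave most of the RNA in every library. Aff4 took 73.7% ± 2.96 of the summed counts per kilobase of Aff1, Aff3 and Aff4 in controls and 75.2% ± 5.43 in knockouts (SD, n = 4 each), and Aff3 at most 2.08% in any library. Ell2 took 82.4% ± 3.65 and 77.8% ± 9.17 of the Ell and Ell2 counts per kilobase, and Mllt10 took 78.1% ± 4.27 and 81.6% ± 4.74 of those of Mllt10 and Mllt6. Mllt3 and Mllt1 were nearest to balance, with Mllt3 at 58.4% ± 5.9 and 58.3% ± 5.85, and from 49.8% to 64.8% over the libraries.

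A ratio of genes within a library does not depend on the scaling of that library, and in no ratio were the genotypes apart. The log2 ratio of Ell2 to Ell was 1.82, 2.65, 2.41 and 2.10 in controls 1 to 4 and 2.83, 1.70, 0.95 and 2.11 in knockouts 1 to 4. The mean difference was −0.35, and it ran from −0.66 without knockout 1 to −0.03 without knockout 3. The log2 ratio of Mllt10 to Mllt6 was 1.41, 1.72, 2.13 and 2.15 in controls and 1.98, 1.74, 2.90 and 2.13 in knockouts, a difference of 0.34 that ran from 0.10 without knockout 3 to 0.48 without knockout 2. The ratio of Aff4 to Aff1 differed by 0.16, from 0.04 without knockout 4 to 0.32 without knockout 2. That of Mllt10 to Dot1l differed by −0.24, from −0.39 without control 1 to −0.13 without control 4. That of Mllt3 to Mllt1 differed by −0.01 and changed sign, from −0.15 without control 2 to 0.16 without knockout 1. The ratio of Aff3 to Aff1 is not given, since Aff3 was at 0 in 4 libraries.

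**Figure D4:**
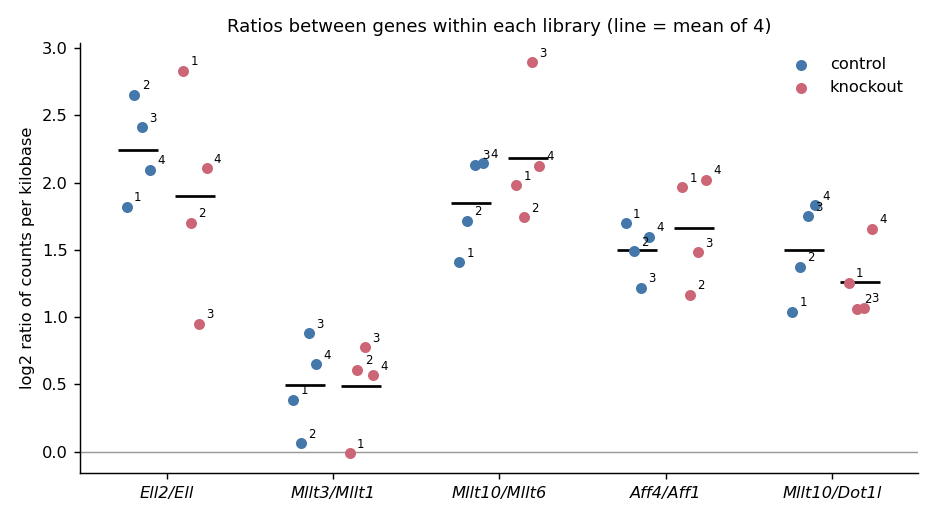
Log2 ratio of counts per kilobase between 2 genes in the same library (y axis) for 5 pairs, each point 1 of 4 control (blue) or 4 knockout (red) libraries numbered by replicate, with the mean of the group as a line. The genotypes overlap in each pair, and knockout 3 is the lowest point for Ell2 to Ell and the highest for Mllt10 to Mllt6.

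The same comparison was made for the machinery these proteins work with, in 7 lists of 51 genes, of which 49 passed the filter. With edgeR 0 of the 49 genes was called, beside 0.186% of all tested genes. None was called under any of the 18 alternative settings, DESeq2 and limma-voom among them. An unadjusted p under 0.05 in edgeR's fit was found for 2 of the 49, beside 6.88% of all tested genes. The genotypes did not overlap in 3 of the 49, beside 4.52% of all tested genes. Of the 49 fold changes 31 lay above 0, beside 50.9% of all, with a median of 0.06 on the log2 scale.

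P-TEFb is the kinase that releases paused polymerase, and the 7SK particle holds it inactive. Of 7 genes tested 0 was called, with a median log2 fold change of 0.11. Among the genes of high level per kilobase were Larp7, which binds 7SK RNA (log2 fold change 0.11), and Hexim1, the P-TEFb inhibitor (0.06). For Larp7 the means were 10.4 ± 0.494 normalized CPM in controls and 11.2 ± 1.73 in knockouts (SD, n = 4 each). Of the ELL partners and the little elongation complex, which serves small nuclear RNA genes, 4 of 6 were tested, 0 was called and the median was −0.14. Their leading genes by level were Zc3h8 (−0.36), Eaf1 (−0.24) and Ice2 (0.00). Eaf1, an ELL-associated factor, ran from 5 to 169 counts over the libraries. In knockouts it ran from 0.589 to 10.1 normalized CPM, beyond both ends of the controls at 6.33 to 9.37, and its SE was 0.54.

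The PAF1 complex travels with elongating polymerase and is known to bind Mll1. Its 6 genes had the highest median of the 7 lists, 0.25, with 0 called. Ctr9, its scaffold, named after its values were seen, had 10 to 13 normalized CPM in controls and 13.5 to 15.6 in knockouts without overlap (log2 fold change 0.32, SE 0.18, edgeR adjusted p = 0.834). Leo1 was at 0.53, Rtf1 at 0.02 and Wdr61, which shares 33.9% of its exon bases with Dnaja4, at −0.17. Among the 6 genes of the pausing factors DSIF and NELF 0 was called, the median was 0.04, and the leading genes Supt4a, Nelfe and Nelfb were at 0.21, 0.06 and −0.13. H2B ubiquitination stimulates Dot1l, and of its 5 genes 0 was called with a median of 0.07. The E2 enzymes Ube2b and Ube2a were at 0.23 and 0.06 and the E3 ligase subunit Rnf20 at 0.07.

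Of 10 other RNA polymerase II elongation factors 0 was called, and the median was −0.04. Eloc, encoding elongin C, ran from 37.2 to 39.4 normalized CPM in controls and from 47.1 to 56.9 in knockouts without overlap. Its log2 fold change was 0.38 (SE 0.15, unadjusted p = 0.0239 and adjusted p = 0.609 from edgeR's fit), so it did not pass the test. Elob, encoding its partner elongin B, was at −0.10, and Gtf2f2, encoding a subunit of TFIIF, at −0.46. Of 11 other genes whose counterparts are fused to MLL 0 was called, with a median of 0.08. Their leading genes by level, Abi1, Afdn and Crebbp, were at 0.08, 0.11 and −0.19. Sept9, a septin of the cytoskeleton, was likewise named after its values were seen: it ran from 1.82 to 4.3 normalized CPM in controls and from 4.35 to 7.54 in knockouts, with a log2 fold change of 0.97 (SE 0.34, unadjusted p = 0.0152 and adjusted p = 0.533 from edgeR's fit). That gene too was below the threshold.

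**Figure D5:**
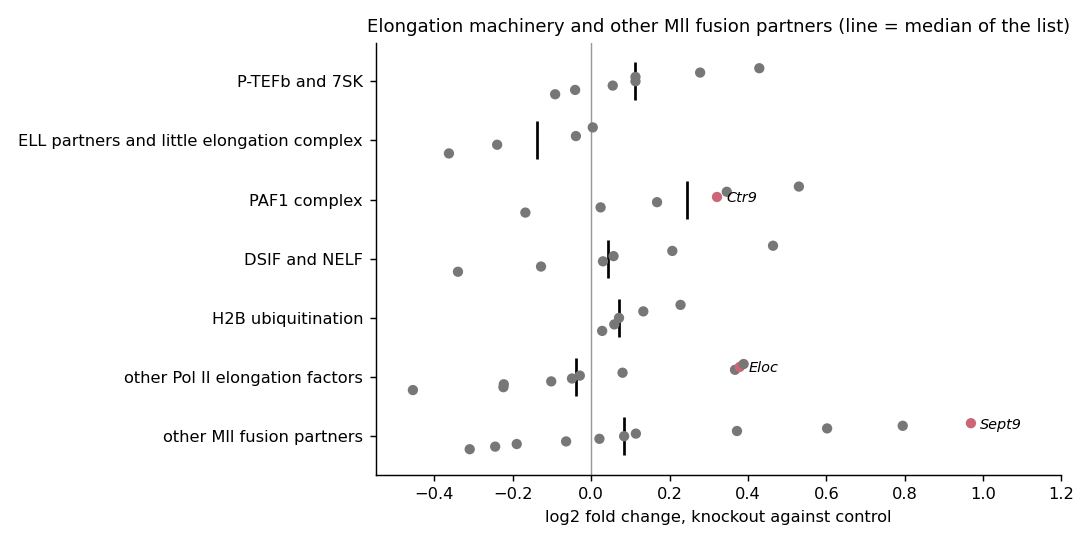
Log2 fold change of knockout against control (x axis) of the 49 tested genes in 7 lists of elongation machinery and other Mll fusion partners (rows), each point 1 gene and each line the median of its list. Red points mark the 3 genes whose genotypes do not overlap, Ctr9, Eloc and Sept9, and no gene passed the test.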

How the data were processed

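The authors copied and amplified polyadenylated RNA by Smart-seq2, aligned reads to mm10 with GSNAP and counted uniquely mapped reads per gene of Ensembl release 92 with featureCounts 1.6.3. The deposited values are raw counts per gene and library. The labels give 1 mg tamoxifen per injection and the study's methods 50 mg/kg. The 92 spike-in rows were left out.

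Samples were grouped by genotype label. Replicate numbers are names in accession order, and the study gives the 4 libraries of a genotype as independent mice; 1 animal number stands in the labels of both control 4 and knockout 4. Symbols were matched for 53620 of 53801 genes. Counts were tested in R 4.3.3 with edgeR 4.0.16 (TMM, filterByExpr with a minimum count of 10 and total of 15, robust quasi-likelihood fit, Benjamini-Hochberg over 13439 genes); the SE is the log2 fold change divided by the square root of F. The code was tested on simulated counts. DESeq2 1.42.0 and limma 3.58.1 were alternatives. Promoter windows are RefSeq's, and exons GENCODE M21's.

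The genes named are all 10 genes, Kmt2a, the 3 genes of highest level per kilobase in each machinery list with any gene called, and the 5 most alike genes for 2 of the 10. A few list members enter the counts but their own values are not given here. The genes and lists were chosen with earlier results of these data known. Alternatives were other scalings, filters and tools, label run, Y-linked level or GC as a term, and each library left out. Label run sets replicates 1 and 2 of each genotype apart from replicates 3 and 4, and whether it stands for a batch is not known here. The study analysed females and males, and the sex of each mouse is not given in the labels used here. The 10 genes had 1530 to 2310 counts per library.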

Additional observations from a re-analysis of the deposited data

Results flagged for a closer look

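For the genes and ratios above and 3 measures of the libraries, each group of 4 libraries was checked for a single library whose gap to its nearest neighbour takes up most of the range of the group. Of 78 such groups 6 were singled out, and chance singles out about 1 in 20 groups, here 3.9. In 4 of the 6 the library was knockout 3. Mllt1 was at 2.36 normalized CPM in knockout 3, below 4.41 to 4.61 in the other knockouts. Ell was at 10.5 normalized CPM in knockout 3, above 1.49 to 2.94 in the others. The TMM factor of knockout 3 was 0.632, against 1.22 to 1.34, and its mitochondrial share was 2.04%, against 5.98% to 6.16%. In knockout 4 Hexim1 was at 17.5 normalized CPM, where the rest of its group had 11.7 to 12.3. Eloc in knockout 4 was at 56.9 normalized CPM, where the rest had 47.1 to 48.1. Whether the scaling of knockout 3 or the cells in it account for its values was not tested.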

How the results depend on the processing

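None of the 9 genes tested was called under any of 18 alternatives, and 145 of the 162 values kept their direction; the lowest adjusted p was 0.305. With each library left out in turn, log2 fold changes ran from −0.045 to 0.27 for Mllt1, from −0.10 to 0.19 for Mllt3, from −0.11 to 0.088 for Mllt10, from −0.35 to 0.79 for Ell and from −0.20 to 0.15 for Kmt2a, and the negative value of Ell was that without knockout 3. Mllt10 was also below 0 with upper-quartile scaling (−0.047), without a filter (−0.0033), with at least 10 counts in every library (−0.0097), with limma-voom (−0.10) and with the label run as a block (−0.0063). Ell was at −0.42 with limma-voom, and Kmt2a at 0.051 with the Y-linked level as a covariate. Scalings moved the median of all genes to between −0.04 and 0.01. The median over the 9 genes ran from 0.01 to 0.19 and those above 0 from 5 to 7.

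The number of genes called in the whole table, 25, was 290 without a filter, 13 with at least 10 counts in every library, 138 with DESeq2's Wald test, 101 with limma-voom, 10 with the Y-linked covariate, and from 10 to 152 with a library left out, the highest without knockout 3. At 10% false discovery rate, 38 genes became 383, 20, 190, 178 and 14 in the same order, and from 15 to 223 with a library left out. Without scaling by exon length, 2 of the 10 genes kept their place in the order of levels. Whether the groups of Aff4 overlapped changed on plain CPM, an alternative added after seeing the data, where 0 of the 9 genes had groups without overlap. In all 40 ratios with a library left out the difference moved by less than 1 SD between replicates, although many moved by over 1.5 times. No paired analysis was possible because replicate numbers are only names. The cause of these changes was not tested. Depth limits Aff3, which had too few counts to test. Ell, with 371 counts over all libraries, had an SE of 0.53, and 0.35 without knockout 3, while Mllt1, with 454 counts, had 0.33 and Aff4, with 3687, had 0.15.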
